A study of Mus musculus with 6 samples.

Results

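Kif1a, Kif1b and Kif21a are motor genes of the kinesin superfamily that had splicing events listed as different between control and Sfpq-knockdown P19 cells. They are 3 of 581 genes with a listed event, and they hold 4 of 643 distinct events. The genes were chosen from these lists, as kinesin genes with an event whose edges match an annotated exon, so their presence in a list is a description and supports nothing by itself. P19 is a mouse embryonal carcinoma line of undifferentiated, stem-like cells. The 6 samples were 3 controls and 3 samples in which a pool of small interfering RNAs had lowered Sfpq, a nuclear RNA-binding protein that takes part in splicing. The differences were deposited as 3 lists, 1 for each replicate number, with 270, 264 and 257 distinct events, referred to below as list 1, list 2 and list 3. No source says which control was paired with which knockdown sample in a list. A list gives the position and type of an event and carries no read count, inclusion level or direction. The depth behind an event is therefore unknown, it cannot be said whether an exon was included more or less after the knockdown, and neither the cell type nor the knockdown can be checked against marker levels.

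Kinesins walk along microtubules, driven by a motor domain that splits ATP, and most carry cargo toward the growing ends of the filaments. Kif1a and Kif1b belong to the kinesin-3 family, with the motor at the N-terminus. Kif1a carries precursors of synaptic vesicles down axons, and Kif1b is made in a short form known for moving mitochondria and a long form known for synaptic vesicle precursors. Kif21a, of the kinesin-4 family, slows microtubule growth near the cell cortex and ends in WD40 repeats, and mutations of its human counterpart cause a congenital fibrosis of the eye muscles. A cassette exon is one that an mRNA holds or skips whole. When its length is divisible by 3, both forms keep the reading frame.

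All 4 events were cassette exons, and they are shown first because the results turn on which exon each list hit. Coordinates are mm10 (the GRCm38 assembly), counted from 1, and all 3 genes lie on the minus strand. The listed exon is in capitals, with 20 nt of each neighbouring exon of the spliced transcript in lower case.
Kif1a exon 33 (chr1:93041574-93041692, list 1): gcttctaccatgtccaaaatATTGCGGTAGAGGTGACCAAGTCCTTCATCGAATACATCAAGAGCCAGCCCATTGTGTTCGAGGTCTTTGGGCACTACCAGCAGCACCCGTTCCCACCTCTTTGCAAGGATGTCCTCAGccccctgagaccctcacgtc
Kif1b exon 10 (chr4:149265345-149265362, list 2): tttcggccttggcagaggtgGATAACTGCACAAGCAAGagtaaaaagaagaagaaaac
Kif21a exon 12 (chr15:90976471-90976509, list 1): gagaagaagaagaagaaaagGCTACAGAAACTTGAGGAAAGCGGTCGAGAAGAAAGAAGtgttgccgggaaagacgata
Kif21a exon 30 (chr15:90949006-90949044, lists 2 and 3): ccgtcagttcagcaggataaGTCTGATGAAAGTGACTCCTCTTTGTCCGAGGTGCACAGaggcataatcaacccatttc
The sequences were read from GENCODE M21 transcripts (Kif1a-210, Kif1b-203 and Kif21a-202), and exon numbers refer to these.

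The lists hit the genes at different places. Kif1a had its 119-nt exon 33 in list 1 and no event in lists 2 and 3. Kif1b had its 18-nt exon 10 in list 2 and no event in lists 1 and 3. Kif21a was the only one of the 3 genes to stand in every list, through its 39-nt exon 12 in list 1 and through its other 39-nt exon, exon 30, in lists 2 and 3. The exons of Kif21a have the same length and lie 27426 nt apart. List 1 thus held 2 of the 4 exons, list 2 held 2 and list 3 held 1, and exon 30 of Kif21a was the only one seen in more than 1 list. Without list 1, 2 of the 4 events are left. Over all genes, 517 of the 643 events stood in 1 list, 104 in exactly 2 and 22 in all 3.

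**Figure D1:**
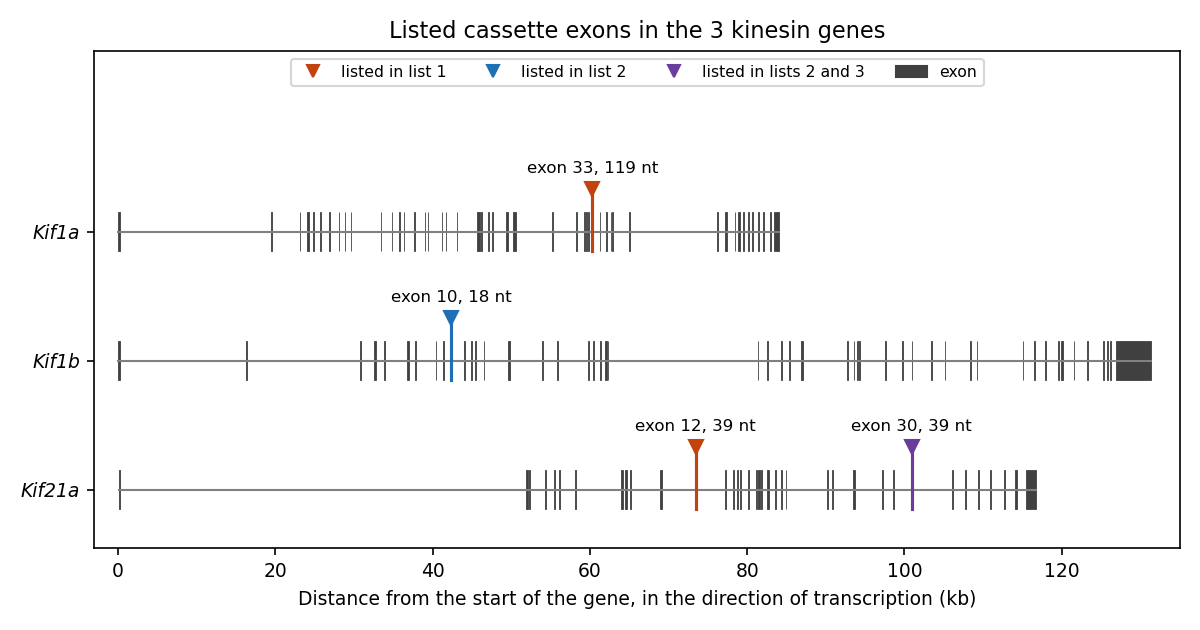
Exons of Kif1a, Kif1b and Kif21a (dark boxes, to scale) against the distance from the start of each gene in kb, with each listed cassette exon marked by a triangle coloured by its lists. Kif1a and Kif1b carry 1 mark each and Kif21a carries 2, of which only exon 30 stood in 2 lists.

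In Kif1b the listed exon falls in the motor itself. Exon 10 codes for 6 codons, numbers 289 to 294 of 1816 (stop codon included), after 15.9% of the coding sequence, which places it in the N-terminal motor domain. It begins and ends between codons, so that it adds or removes 6 whole codons, and with 18 nt it is the shortest of the 48 distinct internal coding exons annotated for the gene, whose median is 108 nt. Exons this short are rare: 669 of 165179 internal coding exons of protein-coding genes (0.405%) have 18 nt or fewer. Of the 437 listed cassette exons, coding or not, 29 (6.64%) do. The share of 0.405% is over all internal coding exons, whether or not any transcript skips them. Among listed cassette exons held by a protein-coding transcript, 306 of 390 are skipped by another. No share was taken over annotated cassette exons alone, so the gap cannot be read as a preference of the lists for short exons. The gap was not tested. Other genes with a listed cassette exon of exactly 18 nt were 11, the first in alphabetical order being Abi2, Adgrl3, Atp6v0a1, Cadps and Cask. Of the 4 protein-coding transcripts of Kif1b, Kif1b-203 holds exon 10, and Kif1b-201 (the short form, of 21 exons) and Kif1b-202 (a long form) skip it. Both forms of the motor are thus annotated without the exon, and a long one with it. The introns on its sides measure 889 nt and 1654 nt, either side of the 1390 nt median of the transcript.

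Kif21a was listed at an exon that follows its motor part and at one that comes before its WD40 repeats. Exon 12 covers codons 558 to 571 of 1672, after 33.4% of the coding sequence, and exon 30 covers codons 1305 to 1318, after 78.0% of it. Each exon holds as many bases as 13 codons and starts after the second base of a codon, so either can be left out without a shift of frame, and a script found the original stop codon in the transcript without either exon. Exon 12 is held by 2 of 7 protein-coding transcripts and skipped by 3, and exon 30 is held by 4 and skipped by 3. The introns beside both exons are long for this gene. They measure 4285 nt and 3755 nt around exon 12 and 2201 nt and 5104 nt around exon 30, against a median of 1210 nt over the 36 introns of the transcript. Cassette exons of 39 nt were listed 8 times in all, with Adgrl2, Elavl2, Ndrg3, Rcc1 and Sec31a the first of 6 other genes in alphabetical order. Of all internal coding exons, 2.78% have at most 39 nt. Of the listed cassette exons, coding or not, 22.0% do. Here too, no share was taken over annotated cassette exons alone, so the gap cannot be read as a preference for short exons. The gap was not tested.

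Kif1a differs from the other members in that its listed exon is one that every annotated protein-coding transcript spanning it holds. Exon 33 lies after 64.5% of the coding sequence, between the motor and the C-terminal lipid-binding (PH) domain, and begins at codon 1156 of 1791. It is held by 5 of 6 protein-coding transcripts and skipped by none of them, and only the non-coding Kif1a-208, which leaves out a longer stretch, lacks it from within its span. Its 119 nt are not divisible by 3. If Kif1a-210 lost exon 33 and nothing else, the frame would shift and a stop codon would follow at codon 1178, 22 codons past the joint and 1680 nt before the last exon junction. Transcripts with a stop codon far upstream of their last junction are, as background, usually removed by nonsense-mediated decay, and no level of such a transcript was measured here. Among listed cassette exons held by a protein-coding transcript, 84 of 390 (21.5%) are, like exon 33 of Kif1a, skipped by no other protein-coding transcript. Of these, 9.52% stood in more than 1 list and 36.9% had a length divisible by 3. For the 306 that another protein-coding transcript skips, such as the exons of Kif1b and Kif21a, the shares were 23.9% and 73.9%. These shares describe the lists and were not tested. The only other listed cassette exon of 119 nt lay in Smim10l1.

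**Figure D2:**
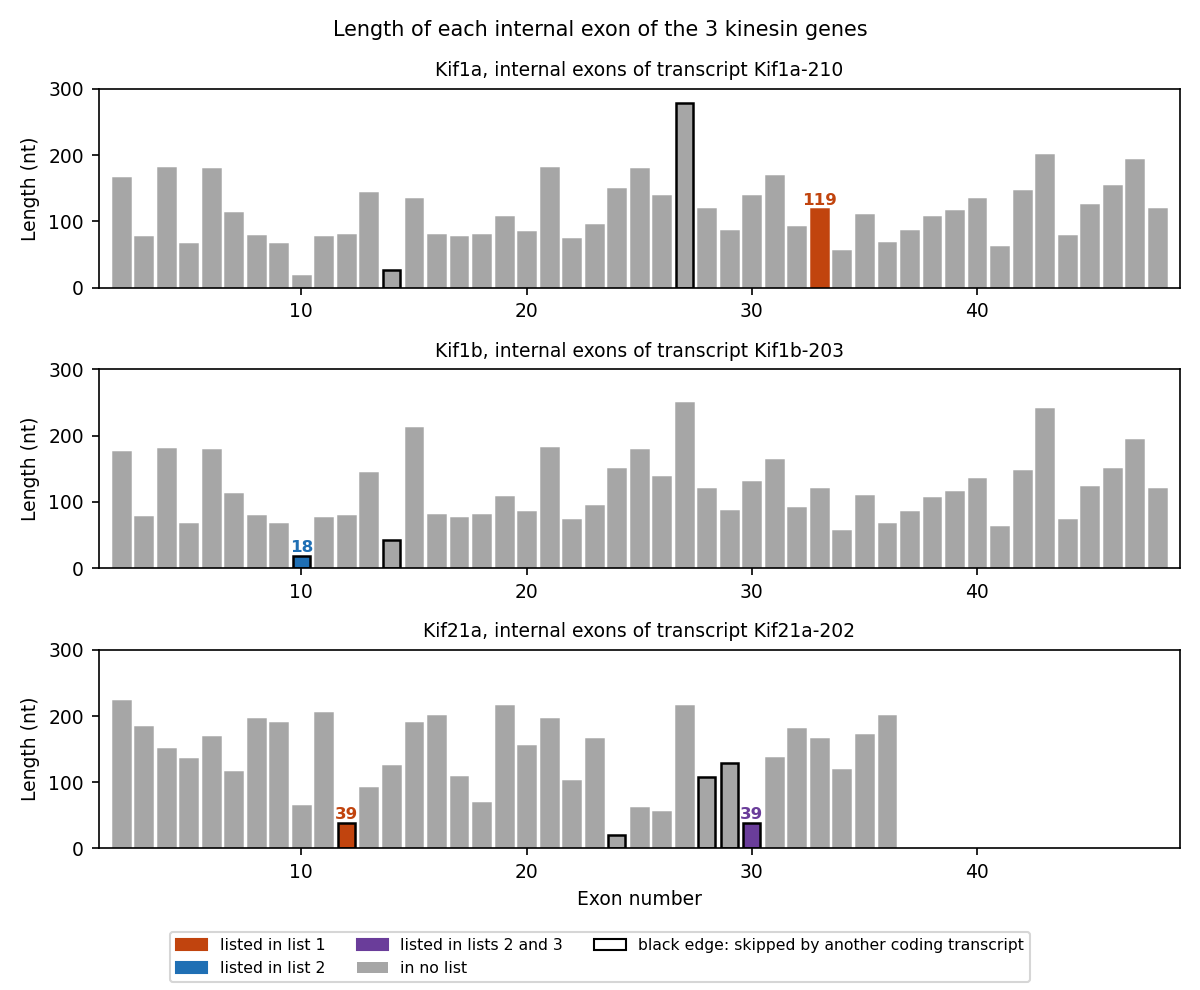
Length in nt of each internal exon, by exon number, in the transcripts Kif1a-210, Kif1b-203 and Kif21a-202, with colour for the lists that hold an exon and a black edge where another protein-coding transcript skips it. The listed exons of Kif1b (18 nt) and Kif21a (39 nt each) are short and have the black edge, while that of Kif1a (119 nt) is of ordinary length and does not.

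Most of the alternative exons annotated in these genes were in no list. The 3 genes have 136 distinct internal exons in protein-coding transcripts, and 15 of them are skipped by another protein-coding transcript of the gene. Of those 15, 3 were listed, where 1.93% of all such exons were, and of the 136, 4 (2.94%) were listed, where 0.217% of all internal exons were. The genes were picked for having a listed exon, so nothing can be read from the higher shares. In Kif1a all 5 annotated cassette exons were absent from the lists, among them exons of 27 nt (exon 14 of Kif1a-210) and 24 nt (exon 37 of Kif1a-204), and the listed exon 33 was not one of them. In Kif1b exon 10 was listed and exon 14 (42 nt) and a 27-nt exon of Kif1b-207 were not. In Kif21a the listed exons were 2 of 7. Exons 28 (108 nt) and 29 (129 nt), which sit right before exon 30 in Kif21a-202, were absent, and so was the 15-nt exon that follows exon 30 in Kif21a-201.

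Kif1a and Kif1b are sister genes with nearly the same exon plan, which lets the exon hit in one be looked up in the other. Of 47 internal exons in each of Kif1a-210 and Kif1b-203, 37 have equal lengths in the same order. The 18-nt exon of Kif1b lies between exons of 66 nt and 76 nt, and Kif1a has an 18-nt exon at the same place. There, 9 of 18 bases are identical (50.0%), and the Kif1a exon is held by 5 protein-coding transcripts and skipped by none. In Kif1c, the third gene of the group, the exons of 66 nt and 76 nt are joined directly in 5 annotated transcripts, with no exon between them. The 119-nt exon of Kif1a lies between exons of 91 nt and 56 nt, and so does a 119-nt exon 33 of Kif1b, with 90 of 119 bases identical (75.6%). For Kif21a, exon 30 has a counterpart in its sister gene Kif21b (exon 28 of Kif21b-201), which shares 33 of 39 bases (84.6%). This counterpart was searched for as a 39-nt exon followed by one of 137 nt, so both lengths match by choice. The exon before it (129 nt in Kif21a) was not required to match. For exon 12 of Kif21a, no counterpart was found in Kif21b-201. The search asked for neighbours of 204 nt and 91 nt, which differ in Kif21b, so it could not have found one. In Kif21b-201 the 64-nt exon found in both genes is followed by exons of 219 nt, 82 nt and 118 nt. In Kif21a-202 the 64-nt exon is followed by exons of 204 nt, 39 nt and 91 nt. In Kif21a-201, which skips exon 12, it is followed by exons of 204 nt, 91 nt and 124 nt. The sequences were not compared at this place. None of the counterparts was in a list. They are shown for comparison with the listed exons above, in the same layout.
Kif1a exon 10 (chr1:93072308-93072325, counterpart of Kif1b exon 10): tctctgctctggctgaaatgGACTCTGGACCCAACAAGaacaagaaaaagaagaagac
Kif1b exon 33 (chr4:149207849-149207967, counterpart of Kif1a exon 33): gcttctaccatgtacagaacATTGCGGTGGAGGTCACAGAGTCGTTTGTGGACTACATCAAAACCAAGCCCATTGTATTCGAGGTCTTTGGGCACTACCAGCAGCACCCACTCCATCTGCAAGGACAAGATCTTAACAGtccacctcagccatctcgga
Kif21b exon 28 (chr1:136167162-136167200, plus strand, counterpart of Kif21a exon 30): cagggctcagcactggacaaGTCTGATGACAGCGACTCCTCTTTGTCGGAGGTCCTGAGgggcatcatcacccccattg
Absence from a list is not a measurement of unchanged splicing, since the lists do not tell which exons had enough reads to be compared.

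The rest of the kinesin superfamily had no listed event. Of 42 superfamily genes with more than 1 exon, Kif1a and Kif21a were in list 1, Kif1b and Kif21a in list 2 and Kif21a in list 3, with 3 genes (7.14%) in any list. Among 20620 protein-coding genes of more than 1 exon, 1.24% had an event in list 1, 1.23% in list 2, 1.16% in list 3 and 2.81% in any list. Genes with many exons were listed more often: 6.69% of those with a transcript of 20 or more exons had an event, and 3 of the 25 such kinesin genes did. Kif1a and Kif1b have more exons than any other gene of the family (49 each) and Kif21a ranks 6 with 37, against a family median of 22.0. With 3 genes chosen from the lists, the family share is given beside the background and was not tested.

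Genes for kinesin light chains and cargo adaptors and for the motor of the opposite direction were listed as well. Their shares stand against the same backgrounds of 2.81% of all genes and 6.69% of those with 20 or more exons. The gene lists of these groups were chosen with earlier results of these data known, so the shares are a description only and were not tested. Of 28 genes for kinesin light chains and cargo adaptors, 4 (14.3%) had an event in any list: Klc1, a light chain of kinesin-1 (51 nt, list 3); Madd, which links Kif1a and Kif1b to Rab3 vesicles; Mapk8ip3, a scaffold between kinesin-1 and dynein (an alternative donor of 93 nt, list 2); and Fez2, related to a kinesin adaptor (81 nt, list 3). Among the 9 genes of this group with 20 or more exons, 2 had an event. Madd had cassette exons of 9 nt and 60 nt in lists 1 and 3 and one of 63 nt in list 1. Without list 3 the count falls to 2 genes. Of 34 genes for cytoplasmic dynein, which walks toward the minus ends, and for its partner dynactin and adaptors, 4 (11.8%) had an event: Dync1i1 (60 nt, list 3), Dync1i2 (60 nt, list 2), Dctn1 (15 nt, list 2) and the regulator Nde1 (an alternative acceptor of 128 nt, list 3). Of the 6 genes of this group with 20 or more exons, 1 had an event. Without list 2 or without list 3, 2 of these genes are left. Dync1i1 and Dync1i2 code for the dynein intermediate chains. Their listed exons both precede an exon of 116 nt and share 46 of 60 bases (76.7%), while the exons before them differ in length (142 nt in Dync1i1 and 91 nt in Dync1i2). The 3 groups together held 14 events in 11 genes, 12 of them of a length divisible by 3, with exon 33 of Kif1a and the acceptor of Nde1 as the exceptions. Of the 12 cassette exons of the 3 groups, 11 had a length divisible by 3. Among the 437 listed cassette exons in protein-coding genes of more than 1 exon, 268 (61.3%) did. Of the 12, all but exon 33 of Kif1a are skipped by another protein-coding transcript. Among all listed cassette exons of that kind the share was 226 of 306 (73.9%), and the differences were not tested. Of the 14 events, only exon 30 of Kif21a and a pair of exons of Madd recurred.

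**Figure D3:**
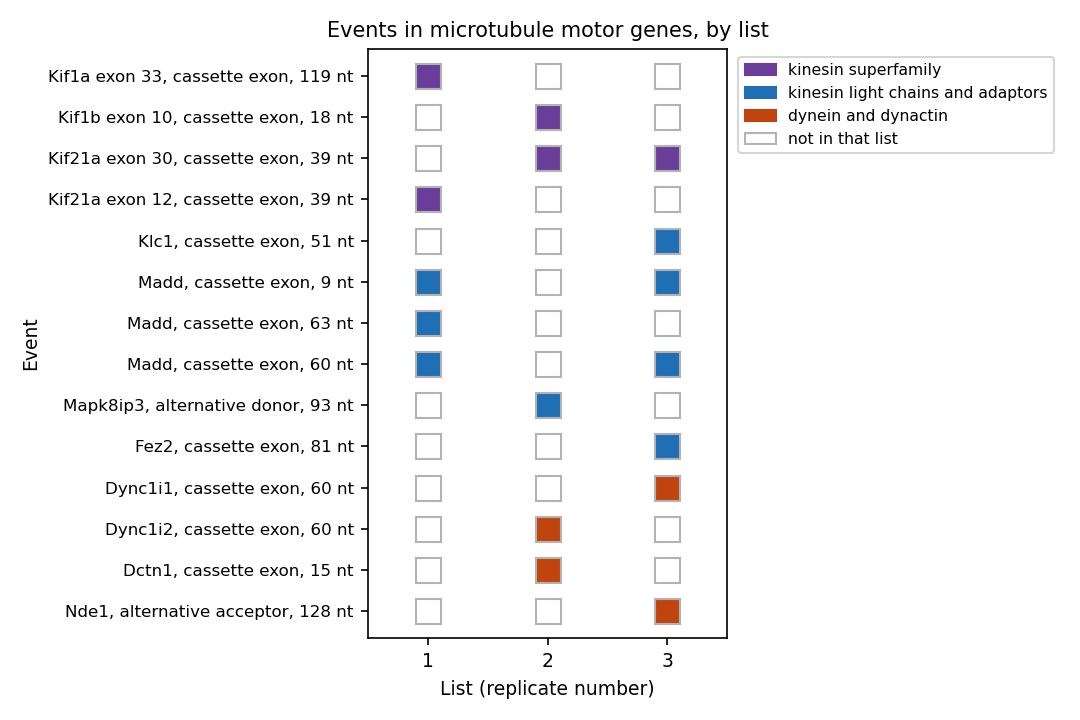
Each of the 14 listed events in genes of the kinesin superfamily (purple), kinesin light chains and adaptors (blue) and dynein and dynactin (red), with a filled square for each list that holds it. Filled squares stand in 2 lists for exon 30 of Kif21a and for the 9-nt and 60-nt exons of Madd, and in 1 list for the other 11 events.

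The pattern of Kif21a, a gene in all 3 lists with no event common to all 3, was shared by 4 other genes. In total 26 genes were in all 3 lists, and 21 of them held an identical event in each. The 4 genes most like Kif21a were Cadps, which primes secretory vesicles, with cassette exons of 12, 147, 18 and 69 nt, of which the last was in lists 2 and 3; Camk2b, a calcium-dependent kinase, with exons of 45, 33 and 129 nt, 1 in each list; Nrxn2, a presynaptic adhesion protein, with exons of 24 nt (lists 2 and 3) and 27 nt (lists 1 and 3); and Zfp2, a zinc finger gene, with an alternative donor of 4 nt (lists 1 and 3) and an alternative acceptor of 3 nt (list 2). Kif1a and Kif1b, each with 1 exon in 1 list, were among 436 genes found in exactly 1 list.

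Short words that the study used for its Sfpq motifs were searched in the exons, on the transcript strand alone. Of the first motif (CTGT or CTGA), exon 30 of Kif21a held 1 match and the other 3 exons held 0. Among all internal coding exons of the same length, 75.7% of 119-nt exons, 16.0% of 18-nt exons and 38.4% of 39-nt exons held at least 1. Of the second motif (CTGTA or ATGTA or TTGTA or GTGTA, of which the first contains a word of the first motif), the 4 exons held 0, and the shares over all exons of those lengths were 28.1%, 2.4% and 6.35%. With 100 nt of spliced mRNA on each side, matches to the first motif numbered 3 for exon 33 of Kif1a, 2 for exon 10 of Kif1b, 2 for exon 12 of Kif21a and 6 for exon 30 of Kif21a. The other internal coding exons of the same transcripts had medians of 4, 4, 4.0 and 3.5, and all 4 listed exons lay within the range of these. Each window includes its exon, so the windows of the 18-nt and 39-nt exons held less sequence than most others. The counts were not adjusted for this. Words of the first motif thus occurred in most mRNA windows, the introns were not searched, and a match is no sign of binding.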

How the data were processed

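RNA from 3 control and 3 Sfpq-knockdown samples of P19 cells was sequenced as paired ends from stranded libraries (the labels and the study's methods name different kits). The authors deposited event positions and types from SpliceTrap, a program that estimates exon inclusion, and cutadapt, STAR, Bowtie2 and the build mm10 are named in the submitters' processing notes. Versions and the calling threshold are not given in the sources used here. Identical lines were counted once, 1 line with an unreadable start was left out, and 1 was added to each start, since 433 of 439 cassette events then matched an annotated exon and 0 did otherwise. Each event was given to the GENCODE M21 gene with the best matching exon or intron edges, multi-exon protein-coding genes first. An exon was described in the protein-coding transcript with most exons that holds it. Exon sequence came from GENCODE transcripts. Protein sequences were not used here. Counterpart exons were found by the lengths of their neighbours and compared base by base without gaps. For exon 30 of Kif21a, the search in Kif21b used its own length and that of the following exon. The exon before it was not required to match. Members, gene lists and words were chosen with earlier results of these data known. The genes named were the members, listed genes of the 3 motor groups, genes in all 3 lists with no common event, up to 5 genes with a listed exon of equal length in alphabetical order, and Sfpq, which had 0 events. Kif1c and Kif21b fall outside this rule and were named as sister genes, after their values were seen. The gene assignment was checked on planted exons. Whether replicates were separate cultures is not stated. No test was run, since the lists hold no value per sample. Python 3.11.15 and matplotlib 3.10.9 were used.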

Additional observations from a re-analysis of the deposited data

How the results depend on the processing

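The 4 kinesin events were found also when 1 matching edge or any overlap was enough, with cassette exons only and with protein-coding transcripts only; with starts as given the count was 0, because the lists count starts from 0. Leaving out a list in turn left 2 to 4 events, 2 to 3 superfamily genes, 2 to 4 light chain and adaptor genes and 2 to 4 dynein and dynactin genes. The family's share was 2.54 times the background, and 1.8 times among genes of 20 or more exons. The 3 listed family genes are the members, which were chosen from these lists, so nothing can be read from these ratios. With 200 nt of spliced mRNA on each side, a window chosen after seeing the data, matches over the 4 exons rose from 13 to 24 for the first motif and from 1 to 3 for the second; the planned intron windows were not run, since no genome sequence was used here. No paired analysis was possible because the lists hold no value per sample. Depth limits every absence, since a missing exon may have had too few reads.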

Other observations

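Exon 12 of Kif21a is rich in purines. Of its 39 bases 30 are A or G (76.9%), against a median of 53.8% over 378 internal coding exons of that length, of which 2.12% have as many. The other listed exon of Kif21a is not, with 48.7% purines, and neither is exon 33 of Kif1a, with 46.2% against a median of 52.9%. Exon 10 of Kif1b had 66.7% against a median of 55.6%, and 26.4% of exons of 18 nt had as many. The share of G and C in the 4 exons was 52.9% in Kif1a, 44.4% in Kif1b and 46.2% and 51.3% in Kif21a, against medians of 51.3%, 50.0% and 48.7% for exons of 119, 18 and 39 nt. These values were looked at after the exons were known and were not tested.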
